A study of Mus musculus with 8 samples.

Results

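Keratin genes encode the intermediate filaments of epithelial cells, and their transcripts were read in 8 mouse tumors. The genes are the rows of the gene table with the biotype protein_coding and a name of Krt followed by a number, 53 of 54532 genes in all. A further 2 rows with such a name had another biotype and were not used. The tumors came from 4T1-FLuc, a mouse triple-negative breast cancer line carrying firefly luciferase, grown under the skin of young immunocompetent female BALB/cJ mice. The 4 control tumors are titled saline, while their treatment label says PBS control. The 4 treated tumors received repeated intravenous courses of mAb-DXd/IMQ, a humanized antibody to CD276 that carries DXd, an inhibitor of topoisomerase I, and IMQ, an imidazoquinoline agonist of TLR7 and TLR8. Tumors were harvested at the endpoint of the study for bulk RNA sequencing, and the RNA can include host tissue next to the cancer cells. The comparison asks which keratins differ between treated and control tumors. Total counts were 45019927 to 69582375 in saline tumors and 34591912 to 51625237 in mAb-DXd/IMQ tumors. Values are given as CPM, counts relative to the TMM-scaled library size. RPKM is the same divided by the deposited gene length and is used where levels of different keratins are compared. That length is 7049 bases for Krt7, against 1437 for Krt18 and 1958 for Krt8. A count of 3, used as the floor for detection, corresponds to 0.0439 to 0.0843 CPM, and floors cover counting error only.

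Keratins assemble as pairs of a type I (acidic) and a type II (basic) chain, and the pair in use marks the kind of epithelium. Simple epithelium, including the luminal cells of the mammary gland, uses Krt8 with Krt18, basal cells of stratified epithelium use Krt5 with Krt14, and differentiating epidermis uses Krt1 with Krt10. Krt6a, Krt6b, Krt16, and Krt17 are induced in wounded or stressed epidermis and are also found in hair follicles. By coordinates, 27 of the genes lie on chromosome 11 between 99232761 and 100269871 and 26 on chromosome 15 between 101347444 and 102032027 (GRCm38), with Krt18 the type I gene in the type II cluster.

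Tumors of both groups held abundant transcripts of the simple keratins Krt8 and Krt18 and also Krt14, while Krt5, Krt6a, Krt6b, Krt16, and Krt1 were high in 1 tumor of each group. Of the 53 keratins, 20 passed the filter on low counts and were tested, 18 had counts but too few, and 15 had a count of 0 in all 8 tumors. The edgeR quasi-likelihood test placed 0 keratins past an adjusted p of 0.05 and an absolute log2 fold change of 0.58, where 1.06% of all 18511 tested genes passed both. At an unadjusted p under 0.05 there were 2 keratins, Krt17 and Krt42, that is 2 of 20 against 18.9% of all tested genes. DESeq2 and limma-voom also placed 0 keratins past the thresholds, where 806 and 174 of all genes passed. Each gave 2 keratins at an unadjusted p under 0.05, against 12.6% of all genes with DESeq2 and 18.9% with limma-voom. However, DESeq2 gave no p for 4 of the 20, Krt5, Krt6a, Krt6b, and Krt16. The groups overlapped for every tested keratin (0 without overlap, against 13.1% of all tested genes). Among the tested keratins 18 had a positive and 2 a negative log2 fold change, the same split under both other scalings and 17 to 3 with a gene length correction. It was 15 to 5 with limma-voom and with a replicate block. Their median was 0.54, where all tested genes had a median of 0.022. Without mAb-DXd/IMQ tumor 2 the split was 11 to 9 and the median 0.024, so both rest largely on that tumor. The median was 0.30 with the block, 0.35 without saline tumor 2, and 0.34 without saline tumor 4. The median within-group SD of the keratins was 0.943 on the log2 CPM scale against 0.284 for all tested genes, a description without a test. The comparison is not matched for abundance, and some tested keratins had values of 0 or a mean under 1 CPM.

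**Figure D1:**
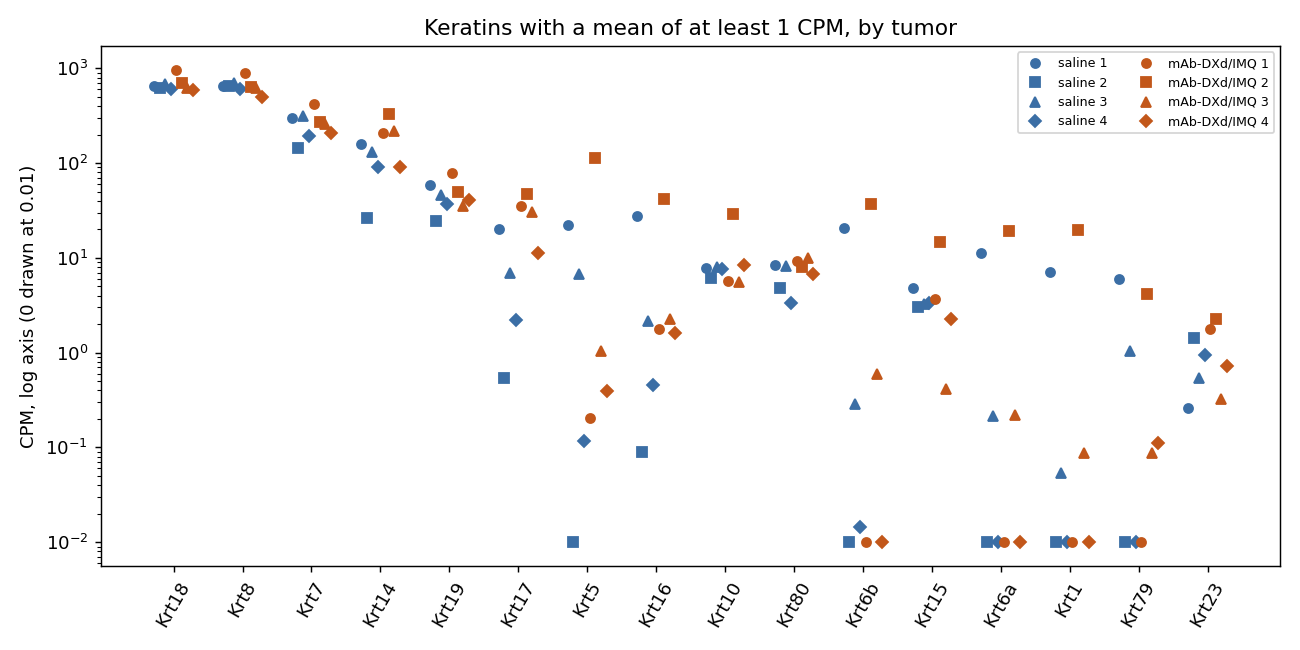
CPM on a log axis for the 16 keratins with a mean of at least 1 CPM, 1 point per tumor, with saline tumors in blue, mAb-DXd/IMQ tumors in orange, and values of 0 drawn at 0.01. Krt8 and Krt18 lie close together in all tumors, while Krt5, Krt6a, Krt6b, Krt16, and Krt1 are high in saline tumor 1 and mAb-DXd/IMQ tumor 2.

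Krt8 and Krt18 were the most abundant keratins and varied least within the groups. Krt18, the type I chain of simple epithelium (ENSMUSG00000023043, chromosome 15 from 102028180 to 102032027), had 648, 615, 685, and 602 CPM in saline tumors 1 to 4 and 971, 695, 618, and 589.5 CPM in mAb-DXd/IMQ tumors 1 to 4. mAb-DXd/IMQ tumor 1 was highest, and the other 7 tumors lay in a common range with overlapping groups. Krt8, its type II partner (ENSMUSG00000049382, chromosome 15 from 101996698 to 102004482), had 648, 659, 698, and 611 CPM in saline tumors 1 to 4 and 887, 634, 616, and 493 CPM in mAb-DXd/IMQ tumors 1 to 4. The same treated tumor was highest, mAb-DXd/IMQ tumor 4 was lowest, and the groups overlapped. Means of Krt8 were 654 ± 35.6 CPM in controls against 658 ± 165 CPM after treatment (mean ± SD, n = 4 each), with log2 fold change 0.0083, standard error 0.169, edgeR adjusted p = 0.986, and its 95% interval on the log2 scale ran from -0.36 to 0.38. Means of Krt18 were 637 ± 37.1 CPM in controls against 718 ± 174 CPM after treatment (mean ± SD, n = 4 each), with log2 fold change 0.17, standard error 0.164, edgeR adjusted p = 0.612. Of the windows of 100 bases in Krt8 transcripts, 17.1% also occur in its processed pseudogene or an overlapping RNA, so a part of its counts may be shared with them. Krt18 had no such window, and its level per length stood above that of Krt8 in all 8 tumors.

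Krt7, a type II chain of ducts and glands (ENSMUSG00000023039, chromosome 15 from 101411043 to 101430313), had 300.0, 145, 312, and 191 CPM in saline tumors 1 to 4 and 425, 269.6, 260.3, and 207 CPM in mAb-DXd/IMQ tumors 1 to 4. Krt19, a small type I chain of ductal epithelium (ENSMUSG00000020911, chromosome 11 from 100140810 to 100148665), had 58.7, 24.6, 46.0, and 37.0 CPM in saline tumors 1 to 4 and 77.8, 50.0, 35.1, and 41.0 CPM in mAb-DXd/IMQ tumors 1 to 4. Both were lowest in saline tumor 2 and highest in mAb-DXd/IMQ tumor 1, with overlapping groups. Neither passed the test, Krt7 with log2 fold change 0.29, standard error 0.270, edgeR adjusted p = 0.597 and Krt19 with log2 fold change 0.30, standard error 0.282, edgeR adjusted p = 0.614. Without mAb-DXd/IMQ tumor 1 the log2 fold changes were 0.050 and 0.014, and with any 1 tumor left out they reached 0.45 and 0.51. Krt80, which was less abundant at 6.21 ± 2.49 CPM in controls against 8.47 ± 1.40 CPM after treatment (mean ± SD, n = 4 each), had a log2 fold change of 0.45 (edgeR adjusted p = 0.430). Its counts may be mixed with those of an antisense RNA that held 33.1% as many counts, since the use of strand in counting was not given in the sources used here. Krt23 had 0.790 ± 0.504 CPM in controls against 1.29 ± 0.912 CPM after treatment (mean ± SD, n = 4 each), a difference within the spread between tumors (log2 fold change 0.71, standard error 0.629, edgeR adjusted p = 0.583).

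Krt14, the type I chain of basal cells (ENSMUSG00000045545, chromosome 11 from 100203162 to 100207548), was detected in all tumors, also where its usual partner was nearly absent. It had 160.5, 26.2, 131, and 90.7 CPM in saline tumors 1 to 4 and 208, 328, 216, and 90.7 CPM in mAb-DXd/IMQ tumors 1 to 4. Saline tumor 2 was far below the others and mAb-DXd/IMQ tumor 2 was highest, and the groups overlapped. Means were 102 ± 58.1 CPM in controls against 211 ± 97.0 CPM after treatment (mean ± SD, n = 4 each), with log2 fold change 1.04, standard error 0.481, edgeR adjusted p = 0.270. Krt5, the type II chain that pairs with it (ENSMUSG00000061527, chromosome 15 from 101707070 to 101712898), had 22.1, 0, 6.81, and 0.117 CPM in saline tumors 1 to 4 and 0.206, 112, 1.05, and 0.393 CPM in mAb-DXd/IMQ tumors 1 to 4. Krt5 was high in mAb-DXd/IMQ tumor 2 and saline tumor 1, intermediate in saline tumor 3, and at 0 to 48 counts in the other 5 tumors. In RPKM, Krt14 stood 3.65 times above Krt5 in mAb-DXd/IMQ tumor 2, 9.06 times in saline tumor 1, and 24.1 times in saline tumor 3. The ratio was 257 to 1259 times in saline tumor 4 and mAb-DXd/IMQ tumors 1, 3, and 4, while saline tumor 2 had no Krt5 count. High Krt14 occurred both with Krt5 and nearly without it. The log2 fold change of Krt5 was 1.98 with a standard error of 1.83 (edgeR adjusted p = 0.599), and it was -3.71 without mAb-DXd/IMQ tumor 2 and 3.62 without saline tumor 1. Krt15, another basal type I chain, had 4.85, 3.07, 3.24, and 3.32 CPM in saline tumors 1 to 4 and 3.71, 14.7, 0.415, and 2.25 CPM in mAb-DXd/IMQ tumors 1 to 4. It was highest in mAb-DXd/IMQ tumor 2 and lowest in mAb-DXd/IMQ tumor 3, with overlapping groups. Means were 3.62 ± 0.824 CPM in controls against 5.27 ± 6.44 CPM after treatment (mean ± SD, n = 4 each), with log2 fold change 0.54, standard error 0.734, edgeR adjusted p = 0.737. The direction turned without mAb-DXd/IMQ tumor 2 (-0.77), with limma-voom (-0.38), and with a replicate block (-0.36).

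Krt17, a type I chain of stressed epidermis and of basal-like carcinomas (ENSMUSG00000035557, chromosome 11 from 100256217 to 100261029), had 20.3, 0.542, 6.91, and 2.21 CPM in saline tumors 1 to 4 and 35.2, 46.9, 30.4, and 11.3 CPM in mAb-DXd/IMQ tumors 1 to 4. mAb-DXd/IMQ tumors 1, 2, and 3 were above every saline tumor, whereas mAb-DXd/IMQ tumor 4 was below saline tumor 1, so the groups overlapped. Means were 7.50 ± 8.96 CPM in controls against 30.9 ± 14.8 CPM after treatment (mean ± SD, n = 4 each), with log2 fold change 2.05, standard error 0.806, edgeR adjusted p = 0.205, and the unadjusted p of 0.0274 did not pass adjustment over all genes. Leaving out saline tumor 1 gave 3.25 (edgeR adjusted p = 0.0570), and adjusted p over the 18 alternatives ran from 0.0570 to 0.395. Krt42, a type I gene next to Krt17 that was named after its values were seen (ENSMUSG00000053654, chromosome 11 from 100262882 to 100269871), had 0.203, 0.0451, 0.734, and 0.0293 CPM in saline tumors 1 to 4 and 0.763, 0.493, 2.38, and 0.928 CPM in mAb-DXd/IMQ tumors 1 to 4. It was low throughout, highest in mAb-DXd/IMQ tumor 3, and its groups overlapped (log2 fold change 2.16, standard error 0.861, edgeR adjusted p = 0.210). The log2 fold change was 3.62 without saline tumor 3 and 1.51 without mAb-DXd/IMQ tumor 3.

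**Figure D2:**
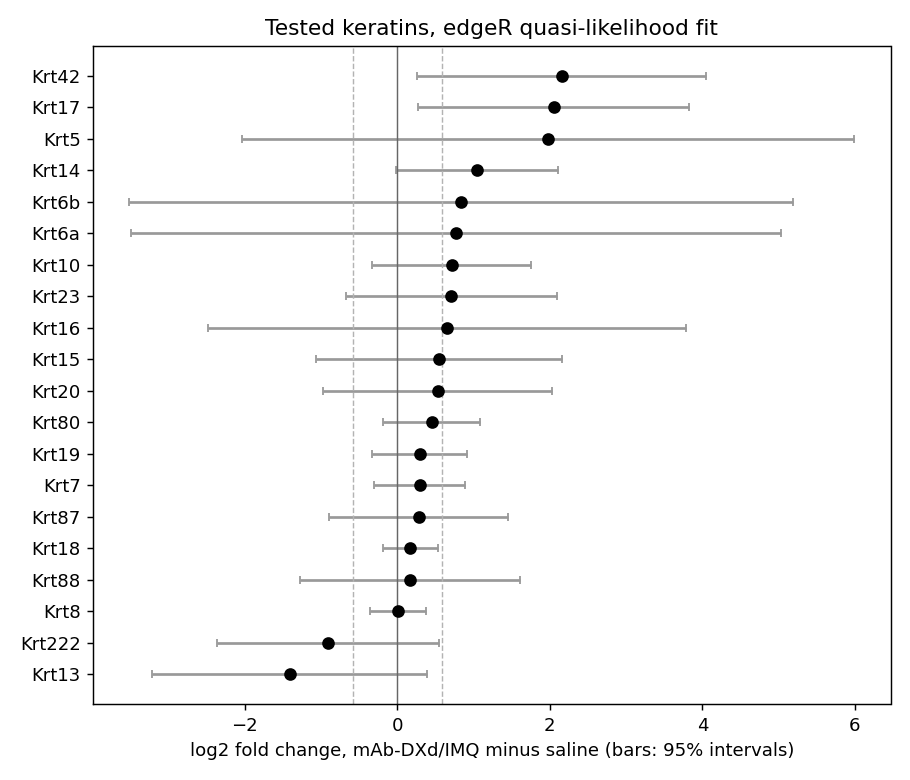
Log2 fold change (mAb-DXd/IMQ minus saline) of the 20 tested keratins, with bars for 95% intervals and dashed lines at the fold change limit of 0.58 in either direction. Krt42 and Krt17 have the highest estimates, at 2.16 and 2.05, and the bars of Krt5, Krt6a, Krt6b, and Krt16 are the widest.

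The other stress keratins, like Krt17, were highest of their groups in saline tumor 1 and mAb-DXd/IMQ tumor 2. Krt16, a type I chain of wounded epidermis (ENSMUSG00000053797, chromosome 11 from 100246091 to 100248902), had 27.8, 0.0903, 2.15, and 0.454 CPM in saline tumors 1 to 4 and 1.79, 42.1, 2.27, and 1.60 CPM in mAb-DXd/IMQ tumors 1 to 4. Krt6b, a type II partner (ENSMUSG00000023041, chromosome 15 from 101676023 to 101680287), had 20.7, 0, 0.287, and 0.0146 CPM in saline tumors 1 to 4 and 0, 36.8, 0.590, and 0 CPM in mAb-DXd/IMQ tumors 1 to 4. Krt6a (ENSMUSG00000058354, chromosome 15 from 101689910 to 101694307) had 11.4, 0, 0.215, and 0 CPM in saline tumors 1 to 4 and 0, 19.3, 0.218, and 0 CPM in mAb-DXd/IMQ tumors 1 to 4. Saline tumor 1 and mAb-DXd/IMQ tumor 2 stood far above the rest for all 3, and the groups overlapped. The other 6 tumors had 4 to 120 counts of Krt16 and 0 to 27 of Krt6a or Krt6b. The difference was within the spread between tumors for Krt16 (log2 fold change 0.65, standard error 1.42, edgeR adjusted p = 0.849). The same held for Krt6b (log2 fold change 0.84, standard error 1.98, edgeR adjusted p = 0.862) and for Krt6a (log2 fold change 0.77, standard error 1.94, edgeR adjusted p = 0.873). Each of these values became negative without mAb-DXd/IMQ tumor 2, at -2.01, -4.68, and -5.21. The last, for Krt6a, had an unadjusted edgeR p under 0.05 but was not past the thresholds. Without saline tumor 1 the values rose to 3.72 for Krt16 and 6.49 for Krt6b, each at an unadjusted p under 0.05 but not past the thresholds, and Krt6a had no value. Krt6a and Krt6b are near copies, with 42.9% and 30.6% of their windows of 100 bases found in transcripts of other genes, mainly each other, so the split of counts between them is uncertain. For Krt16 this share was 24.3%, mostly with an unnamed gene model, and for Krt14 it was 2.78%, with Krt16.

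Krt1, the type II chain of differentiating epidermis (ENSMUSG00000046834, chromosome 15 from 101845426 to 101850794), did not pass the filter on low counts and had 7.01, 0, 0.0537, and 0 CPM in saline tumors 1 to 4 and 0, 19.6, 0.0874, and 0 CPM in mAb-DXd/IMQ tumors 1 to 4. In counts this was 346 in saline tumor 1, 913 in mAb-DXd/IMQ tumor 2, and 0 to 4 in the other 6 tumors. Its partner Krt10 (ENSMUSG00000019761, chromosome 11 from 99385254 to 99389364) had 7.87, 6.14, 7.94, and 7.64 CPM in saline tumors 1 to 4 and 5.65, 29.0, 5.53, and 8.32 CPM in mAb-DXd/IMQ tumors 1 to 4. mAb-DXd/IMQ tumor 2 stood above all others, and the remaining 7 tumors lay between 5.53 and 8.32 CPM with Krt1 at or near 0 in 6 of them. The log2 fold change of Krt10 was 0.71 (standard error 0.474, edgeR adjusted p = 0.450), and -0.19 without mAb-DXd/IMQ tumor 2. Krt79, a type II chain of the hair follicle canal and sebaceous ducts, had 297, 0, 58, and 0 counts in saline tumors 1 to 4 and 0, 192, 4, and 4 in mAb-DXd/IMQ tumors 1 to 4. Krt77, named after its values were seen, had 246 counts in mAb-DXd/IMQ tumor 2, 7 in saline tumor 2, and 0 in the other 6. Krt2 and Krt9 had 0 counts in all 8 tumors. Of the 15 hair and nail keratins 8 had 0 counts in all tumors, and of the 8 follicle sheath keratins 4 did.

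Among the keratins of at least 1 CPM, 8 have a promoter in the RefSeq table and the 3 shown are those that start within 10 bases of the table's gene start. All 3 are genes of stratified epithelium. Krt5 and Krt10 were highest in mAb-DXd/IMQ tumor 2, and Krt79 was highest in saline tumor 1. The 250 bases before each start are from RefSeq (GRCm38.p6, minus strand, 5′ to 3′), at chr15:101712906-101713155 for Krt5, chr11:99389365-99389614 for Krt10, and chr15:101940325-101940574 for Krt79. Capitals mark matches to the motifs searched.
Krt5: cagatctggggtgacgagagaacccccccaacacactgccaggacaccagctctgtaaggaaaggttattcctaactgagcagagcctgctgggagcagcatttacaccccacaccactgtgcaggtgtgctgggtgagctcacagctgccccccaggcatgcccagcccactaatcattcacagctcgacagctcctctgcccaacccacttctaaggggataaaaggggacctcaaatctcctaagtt
Krt10: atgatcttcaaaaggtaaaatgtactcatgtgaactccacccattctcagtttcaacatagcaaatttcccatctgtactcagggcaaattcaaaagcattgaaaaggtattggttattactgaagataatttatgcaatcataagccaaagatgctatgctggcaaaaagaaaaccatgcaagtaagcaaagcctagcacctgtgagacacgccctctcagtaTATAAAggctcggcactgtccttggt
Krt79: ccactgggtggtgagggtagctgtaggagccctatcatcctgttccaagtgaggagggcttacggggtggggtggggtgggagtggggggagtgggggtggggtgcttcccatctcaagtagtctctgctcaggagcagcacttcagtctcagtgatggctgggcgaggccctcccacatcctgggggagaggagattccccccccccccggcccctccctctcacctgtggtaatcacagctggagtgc
The motifs were searched on both strands in all 32851 promoters over the same length. The TATA box letters TATAAA occur in 12.4% of them, the GC box letters GGGCGG in 32.7%, the AP-1 letters TGANTCA in 6.75%, and the AP-2 letters GCCNNNGGC in 13.7%. The only match was TATAAA in Krt10, which began 26 bases before the start. A match is a description of the letters and not evidence of a bound site.

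Summed by class, the simple keratins had 857, 800.4, 904, and 779.7 RPKM in saline tumors 1 to 4 and 1234, 876, 802, and 715 RPKM in mAb-DXd/IMQ tumors 1 to 4. The sums averaged 835 ± 56.3 RPKM in controls against 907 ± 228 RPKM after treatment (mean ± SD, n = 4 each), a log2 ratio of group means of 0.12, and the groups overlapped. They held 71.4% to 97.4% of all keratin RPKM, lowest in mAb-DXd/IMQ tumor 2 and highest in saline tumor 2. The basal class had 104, 16.7, 79.6, and 53.5 RPKM in saline tumors 1 to 4 and 120.4, 246, 124, and 53.0 RPKM in mAb-DXd/IMQ tumors 1 to 4. It was lowest in saline tumor 2 and highest in mAb-DXd/IMQ tumor 2, with overlapping groups. Basal sums averaged 63.5 ± 37.4 RPKM in controls against 136 ± 80.4 RPKM after treatment (mean ± SD, n = 4 each), a log2 ratio of 1.10. The stress class had 44.8, 0.407, 6.05, and 1.72 RPKM in saline tumors 1 to 4 and 23.8, 81.6, 21.4, and 8.31 RPKM in mAb-DXd/IMQ tumors 1 to 4. Saline tumor 1 and mAb-DXd/IMQ tumor 2 were highest of their groups, which overlapped. Stress sums averaged 13.2 ± 21.2 RPKM in controls against 33.8 ± 32.6 RPKM after treatment (mean ± SD, n = 4 each), with an SD above the mean in saline tumors. The log2 ratio of 1.35 was 3.63 without saline tumor 1 and 0.43 without mAb-DXd/IMQ tumor 2. The epidermal suprabasal class had 6.62, 2.96, 4.00, and 3.61 RPKM in saline tumors 1 to 4 and 2.67, 21, 2.66, and 3.98 RPKM in mAb-DXd/IMQ tumors 1 to 4. Its log2 ratio of 0.82 was -0.47 without mAb-DXd/IMQ tumor 2, which stood far above the rest, and -0.18 without that tumor and saline tumor 1. All keratins together took 0.147% to 0.247% of the counts of a tumor.

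**Figure D3:**
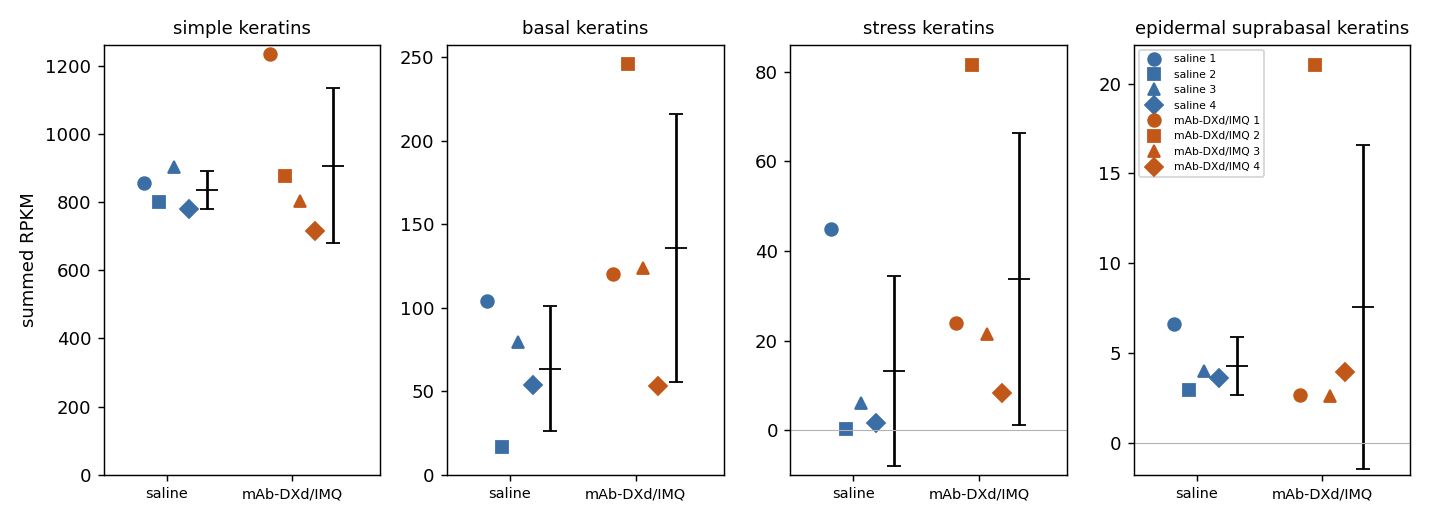
Summed RPKM of 4 keratin classes in each tumor, with points for tumors and a bar at the right of each group for the mean and SD (n = 4). The groups overlap in each class, and saline tumor 1 and mAb-DXd/IMQ tumor 2 lie highest of their groups in the basal, stress, and epidermal suprabasal classes.

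The ratio of type I to type II keratins, a measure of how the chains that pair are balanced, was compared in RPKM. It was 1.52, 1.29, 1.45, and 1.47 in saline tumors 1 to 4 and 1.68, 1.74, 1.69, and 1.76 in mAb-DXd/IMQ tumors 1 to 4. Every treated tumor was above every saline tumor, with means of 1.43 ± 0.0995 and 1.72 ± 0.0397 (mean ± SD, n = 4 each). The ratio of Krt18 to Krt8 was 1.36, 1.27, 1.34, and 1.34 in saline tumors and 1.49, 1.49, 1.37, and 1.63 in mAb-DXd/IMQ tumors. Here the groups were also apart, but mAb-DXd/IMQ tumor 3 lay just above saline tumor 1. The ratio of Krt17 to Krt14 was 0.143, 0.0234, 0.0597, and 0.0276 in saline tumors and 0.192, 0.162, 0.160, and 0.141 in mAb-DXd/IMQ tumors. Here the groups overlapped, with saline tumor 1 just above mAb-DXd/IMQ tumor 4. These are 3 of 7 ratios that were chosen after the data were seen, so they carry no test. Krt18 held 62.1% to 92.5% of type I RPKM and Krt8 72.4% to 93.9% of type II RPKM over the 8 tumors, so the first and second of these ratios are not independent. Such shares and the type ratio depend on the gene lengths used. Krt7, with 7049 bases against 1958 for Krt8, had a mean of 264 CPM against 656 but 37.4 RPKM against 335. Other lengths were not tested for them. The ratio of Krt19 to Krt8 overlapped between the groups, at 0.0393 to 0.0956 in saline and 0.0602 to 0.0926 in mAb-DXd/IMQ tumors. Krt14 to Krt5 and Krt16 to Krt6a also overlapped in the tumors with over 3 counts of the second gene, and Krt10 to Krt1 had a value in only 1 saline tumor. Of single tested genes, 13.1% also had groups that did not overlap. The scaling between tumors cancels in a ratio.

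**Figure D4:**
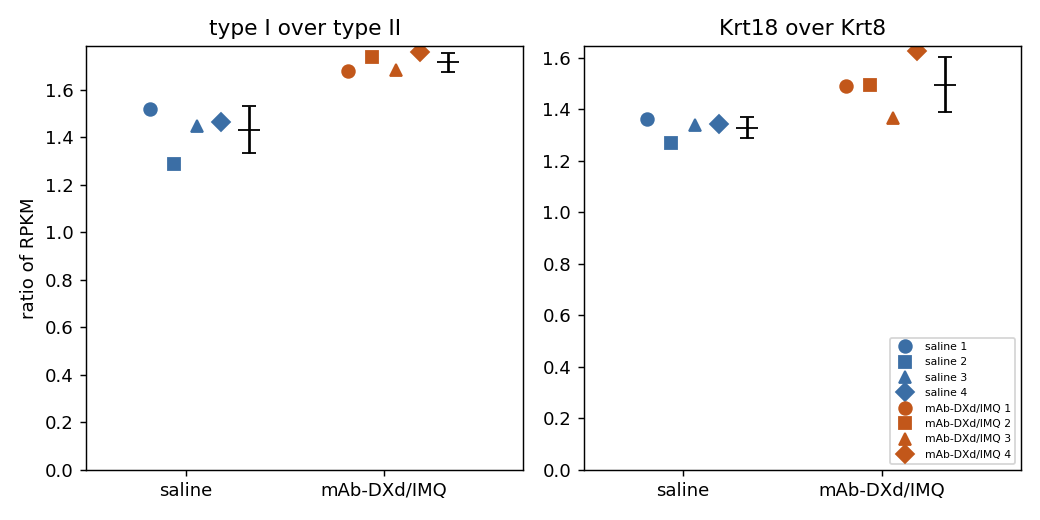
Ratio of summed type I to summed type II keratin RPKM (left) and of Krt18 to Krt8 RPKM (right) in each tumor, with mean and SD (n = 4) beside each group. In both panels the 4 mAb-DXd/IMQ tumors lie above the 4 saline tumors.

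Markers of other cell types were read beside the keratins. In bulk tumors, fewer cells of a type and less RNA per cell cannot be told apart. Of 26 cornified epidermis markers found in the table, 24 had over 3 counts in saline tumor 1 and 26 in mAb-DXd/IMQ tumor 2, where the other 6 tumors had 5 to 13. Their summed level was 86.0, 17.4, 30.7, and 35.4 CPM in saline tumors 1 to 4 and 32.3, 140.1, 14.2, and 26.8 CPM in mAb-DXd/IMQ tumors 1 to 4. The same 2 tumors carried Krt5, Krt6a, Krt6b, Krt16, and Krt1, and the part of host epidermis in these keratin values was not tested. The most abundant gene of the list, Lypd3, had 21.8 ± 9.55 CPM in controls against 18.6 ± 9.10 CPM after treatment (mean ± SD, n = 4 each), with log2 fold change -0.23, standard error 0.398, edgeR adjusted p = 0.804. The list had 0 genes past the thresholds in either direction, with 6 of 9 tested genes positive (median 0.21). Krt14 and Krt17 were also highest of their groups in these 2 tumors, although simple keratins still held 84.5% and 71.4% of keratin RPKM there. Without both tumors, a setting chosen after the data were seen, 0 keratins passed the thresholds. Few genes of any kind passed there, 21 of all 18589 tested, against 197 of 18511 in the main test. Of the 17 tested keratins that then had a value, 11 had a positive and 6 a negative log2 fold change, with a median of 0.11. Among them, Krt17 had 2.98, Krt42 2.32, Krt16 1.065, and Krt14 1.05, while Krt5 had -2.06, Krt15 -0.59, Krt10 -0.16, and Krt23 -0.011.

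**Figure D5:**
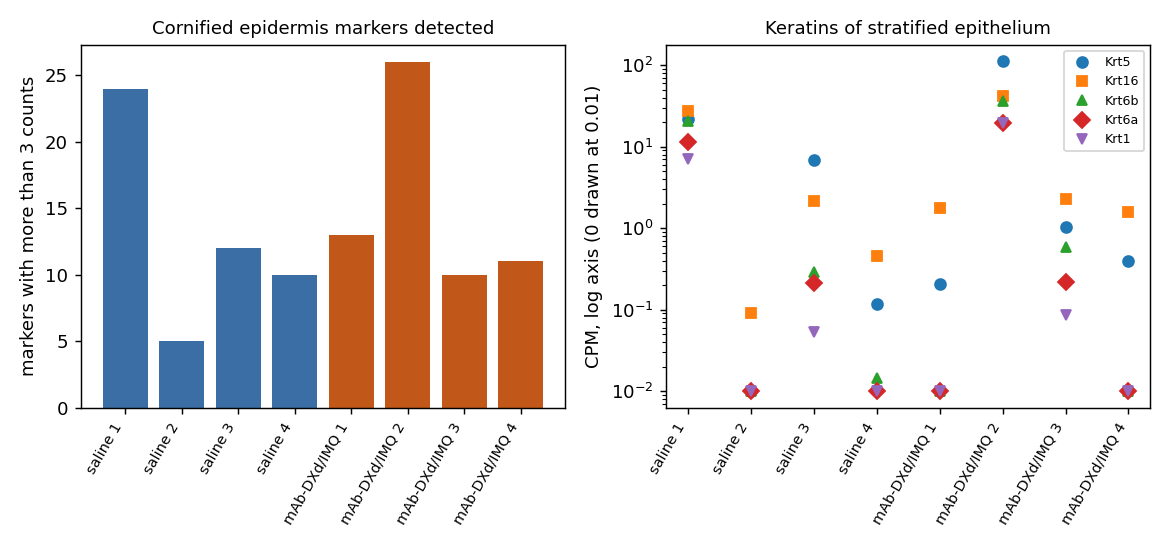
Number of cornified epidermis markers with more than 3 counts in each tumor (left) and CPM of 5 keratins of stratified epithelium on a log axis, with 0 drawn at 0.01 (right). Saline tumor 1 and mAb-DXd/IMQ tumor 2 have 24 and 26 markers and the highest levels of all 5 keratins.

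The tumor epithelium list, checked because the samples are labelled as carcinoma, had 14 or 15 of its 15 genes over 3 counts in each tumor, and its sum was 2096, 1219, 1950.0, and 2014 CPM in saline tumors 1 to 4 and 2889, 2557, 1534, and 1958 CPM in mAb-DXd/IMQ tumors 1 to 4. Saline tumor 2 was lowest, as it was for Krt7, Krt14, Krt17, and Krt19, and the part of this in those values was not tested. Of the 14 tested genes of this list, 11 had a positive and 3 a negative log2 fold change (median 0.38). The tested keratins leaned the same way, with 18 positive and 2 negative (median 0.54), and a link between the 2 was not tested. Epcam, its most abundant gene and a surface adhesion molecule of epithelium, had 374 ± 121 CPM in controls against 508 ± 181 CPM after treatment (mean ± SD, n = 4 each), with log2 fold change 0.44, standard error 0.301, edgeR adjusted p = 0.461. The basal epithelium list summed to 1757 ± 368 CPM in controls and 1845 ± 239 CPM in treated tumors (mean ± SD, n = 4 each). Its leading gene Itgb4, the hemidesmosome integrin that keratins attach to through plectin, had 717 ± 127 CPM in controls against 477 ± 112 CPM after treatment (mean ± SD, n = 4 each), with log2 fold change -0.59, standard error 0.188, edgeR adjusted p = 0.128. The hair follicle list had 53 of 65 genes at 0 in all tumors, and its most abundant gene Padi3 had 15 ± 2.53 CPM in controls against 18.1 ± 4.96 CPM after treatment (mean ± SD, n = 4 each), with log2 fold change 0.27, standard error 0.207, edgeR adjusted p = 0.513. Of the mammary secretory genes, 3 of 7 had 0 counts in all tumors, and Csn3 had 0.429 ± 0.337 CPM in controls against 2.07 ± 1.46 CPM after treatment (mean ± SD, n = 4 each), with log2 fold change 2.27, standard error 0.722, edgeR adjusted p = 0.128.

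Host cell types that surround keratin-bearing cells were read from their own lists, and the gene named in each is that with the highest mean CPM, which is not corrected for gene length. In the sebaceous gland list 2 of 7 genes were tested, and Far2 had the highest CPM (log2 fold change 0.024, standard error 0.353, edgeR adjusted p = 0.982). The other tested gene, Awat2, named after its values were seen, had log2 fold change 0.89 (standard error 0.376, edgeR adjusted p = 0.231). Its groups did not overlap, as for 13.1% of all tested genes. Over 3 counts were 5, 2, 4, and 4 genes of this list in saline tumors 1 to 4 and 5, 6, 4, and 3 in mAb-DXd/IMQ tumors 1 to 4. In the skeletal muscle list, 3 of 9 tested muscle genes had a positive and 6 a negative log2 fold change (median -0.22), and Acta1 had the highest CPM (log2 fold change -0.40, standard error 0.615, edgeR adjusted p = 0.774). In the adipocyte list, 0 of 6 tested adipocyte genes had a positive and 6 a negative log2 fold change (median -0.63), and Fabp4 had the highest CPM (log2 fold change -0.081, standard error 0.242, edgeR adjusted p = 0.895). Muscle and fat lie under the skin where the cells were implanted. Among fibroblast markers, 5 of 8 tested fibroblast genes had a positive and 3 a negative log2 fold change (median 0.13), with the highest CPM for the collagen gene Col1a1 (log2 fold change -0.058, standard error 0.348, edgeR adjusted p = 0.954). Among endothelial markers, 5 of 5 tested endothelial genes had a positive and 0 a negative log2 fold change (median 0.26), with the highest CPM for Pecam1 (log2 fold change 0.23, standard error 0.180, edgeR adjusted p = 0.523). Among leukocyte markers, 1 of 5 tested leukocyte genes had a positive and 4 a negative log2 fold change (median -0.16), with the highest CPM for Ptprc, the CD45 gene (log2 fold change -0.16, standard error 0.173, edgeR adjusted p = 0.676). In the melanocyte list 1 of 5 genes was tested, the melanosome gene Pmel (log2 fold change 0.57, standard error 0.470, edgeR adjusted p = 0.552). Of these 5 genes, 4 had over 3 counts in mAb-DXd/IMQ tumor 2, where each other tumor had 1. The part of host skin in this was not tested. In these 7 lists, and in the tumor epithelium, basal epithelium, hair follicle, and mammary secretory lists, 0 genes passed the thresholds in either direction, and no list was tested as a set.

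Genes that work with keratins were read from lists of their own. The keratin anchorage list holds desmosome, hemidesmosome, and plakin genes, and 11 of 19 tested anchorage genes had a positive and 8 a negative log2 fold change (median 0.072), with 0 past the thresholds. The transcription factors of keratinocytes and of the epithelial state had 0 of 20 tested genes past the thresholds, with 8 positive and 12 negative, and the most abundant, Gata3, had 86.9 ± 5.57 CPM in controls against 80.8 ± 6.93 CPM after treatment (mean ± SD, n = 4 each), with log2 fold change -0.11, standard error 0.101, edgeR adjusted p = 0.618. Among other intermediate filaments 1 of 12 tested genes rose and 0 fell, where 1.06% of all tested genes passed the thresholds in either direction. Nes, which encodes the progenitor filament nestin (ENSMUSG00000004891, chromosome 3 from 87971078 to 87980451), had 24.2, 33.0, 35.8, and 19.6 CPM in saline tumors 1 to 4 and 68.1, 55.9, 89.6, and 70.7 CPM in mAb-DXd/IMQ tumors 1 to 4. All 4 treated tumors were above every saline tumor. Nes rose from 28.1 ± 7.55 CPM in controls to 71.1 ± 13.9 CPM after treatment (mean ± SD, n = 4 each), with log2 fold change 1.34, standard error 0.202, edgeR adjusted p = 0.0201. Its adjusted p no longer passed without saline tumor 3 (0.0618), saline tumor 4 (0.0846), or mAb-DXd/IMQ tumor 4 (0.0694), nor with a replicate block (0.0587) or without both saline tumor 1 and mAb-DXd/IMQ tumor 2 (0.0607). The log2 fold changes of these fits were 1.47, 1.20, 1.35, 1.36, and 1.37, in the same order. Over 18 alternatives its adjusted p ran from 3.03e-07 with DESeq2 to 0.0846. Vim, the filament of mesenchymal cells, had 2382 ± 398 CPM in controls against 2735 ± 471 CPM after treatment (mean ± SD, n = 4 each), with log2 fold change 0.20, standard error 0.178, edgeR adjusted p = 0.586. Cd276, the target of the antibody, measured 99.1 ± 6.50 CPM in controls against 126 ± 26.0 CPM after treatment (mean ± SD, n = 4 each), and did not pass (log2 fold change 0.35, standard error 0.141, edgeR adjusted p = 0.214).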

How the data were processed

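Poly-A RNA from 8 tumors was sequenced. The deposited values are the authors' unnormalized counts for each gene, with gene coordinates and lengths. The submitters' processing notes name HISAT2, HISAT, and TopHat2 and the build mm39, while the start and end of 53499 of 54409 matched genes and of all 53 keratins equal GENCODE M21 on GRCm38, which is the build used here. The counting program, its use of strand, and the versions of these tools were not given in the sources used here. Tumors were grouped by title. Nothing labels same-numbered tumors as pairs, and no library was a duplicate of another. The labels give no batch.

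Counts were filtered with filterByExpr (minimum count 10, minimum total 15), scaled by TMM, and tested in edgeR 4.0.16 (R 4.3.3) with its legacy quasi-likelihood F-test and Benjamini-Hochberg adjustment over 18511 genes. The thresholds were an adjusted p of 0.05 and a log2 fold change of 0.58 in either direction. Standard errors were derived from the F statistic, and 95% intervals from these with edgeR's degrees of freedom. DESeq2 1.42.0, limma 3.58.1, Python 3.11.15, and matplotlib 3.10.9 were also used, and the fits were tested on simulated data. Alternatives changed scaling, filter, test, fold change limit, replicate block, gene length correction, and tumors included. The newer edgeR quasi-likelihood method and the omission of 2 tumors with high epidermal genes were added after seeing the data. Named genes were keratins past the thresholds or of at least 1 CPM on average, the assembly partners, the gene of highest mean CPM and each gene past the thresholds in every list, and Cd276. Motifs were searched in RefSeq promoters, and shared windows in the reference transcripts. The members and lists were chosen with earlier results of these data known.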

Additional observations from a re-analysis of the deposited data

Results flagged for a closer look

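The spread of the 4 tumors of a group was checked in 130 groups of values, those of the named genes, class sums, lists, and the 3 ratios given. In 26 of them 1 tumor lay far from the other 3, with a gap to the nearest that exceeded Dixon's critical value as a share of the whole range. For independent values of a normal distribution chance gives about 1 in 20, or 6.5 of 130. That number does not apply directly here. Some genes had a value of 0 in most tumors of a group, and some were named after their values were seen. These groups of values are not independent, since genes, sums, and lists share members. The share of the range that the gap took is given in parentheses after each. mAb-DXd/IMQ tumor 2 was highest of its group for Krt5 (0.992), Krt16 (0.983), Krt10 (0.881), Krt6b (0.984), Krt6a (0.989), Krt1 (0.996), Krt79 (0.973), summed RPKM of epidermal suprabasal keratins (0.928), Krt77 (1), and summed CPM of cornified epidermis list (0.856). Saline tumor 1 was highest of its group for Krt16 (0.926), Krt6b (0.986), Krt15 (0.858), Krt6a (0.981), Krt1 (0.992), summed RPKM of stress keratins (0.873), and Krt88 (0.846). Saline tumor 2 was lowest of its group for Krt10 (0.833), Krt87 (0.839), Epcam (0.869), and summed CPM of tumor epithelium list (0.833). Saline tumor 2 was highest of its group for Krt77 (1). mAb-DXd/IMQ tumor 3 was lowest of its group for summed RPKM of mucosal and corneal keratins (0.832). mAb-DXd/IMQ tumor 3 was highest of its group for Ptprc (0.910) and summed CPM of leukocyte list (0.921). Saline tumor 4 was highest of its group for summed CPM of adipocyte list (0.835). For Krt77 in saline tumor 2 the gap rests on 7 counts. The low value of Krt87 in saline tumor 2 was 0.293 CPM where the others had 0.468 to 0.502 CPM. Krt88 had 0.527 CPM in saline tumor 1 and 0.158 to 0.215 CPM in the other saline tumors. What sets these tumors apart was not tested.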

How the results depend on the processing

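The count of 0 keratins past the thresholds held under all 19 alternatives, including adjusted p alone, although DESeq2 gave no adjusted p for 4 of the 20. Keratins at an unadjusted p under 0.05 were fewest without saline tumor 4, at 0 of 23 against 13.8% of all genes. The highest share was 4 of 20 against 18.6% of all genes without saline tumor 1 (Krt14, Krt17, Krt16, and Krt6b), and 4 of 20 against 19.7% of all genes with the newer edgeR method (Krt14, Krt17, Krt13, and Krt42). The highest count was 5 of 38 against 13.5% of all genes without the filter (Krt14, Krt17, Krt42, Krt77, and Krt75, the last named after its values were seen). For all genes, 197 passed. The count was 358 without the filter, 806 with DESeq2, 120 with the gene length correction, and 21 without both saline tumor 1 and mAb-DXd/IMQ tumor 2. With 1 tumor left out it ran from 10 to 203: 111, 10, and 11 without saline tumors 2, 3, and 4, and 76, 88, and 12 without mAb-DXd/IMQ tumors 2, 3, and 4. With a replicate block it was 14. Same-numbered tumors did not deviate together over all tested genes (correlations -0.17, -0.055, 0.079, and -0.067). The labels give no pairing, and whether tumors shared a cage, harvest, or processing order was not tested. The cause of the shifts in the count of all genes was not tested.

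Of 246 alternative log2 fold changes of the 14 tested keratins named by the rule, 227 kept their sign, and Krt6a, Krt6b, and Krt23 had no value where a filter removed them. For 22 other named genes, 22 of 386 changed sign. The sign changes had adjusted p of 0.301 or more, and their cause was not tested. With limma-voom, Krt8 was -0.029, Krt15 -0.38, Krt87 -0.0070, and Far2 -0.11. With the replicate block, Krt8 was -0.023, Krt15 -0.36, Krt5 -1.06, and Far2 -0.032. With the gene length correction, Krt8 was -0.062 and Col1a1 0.0041, and with the newer edgeR method Far2 was -0.0013. Without both saline tumor 1 and mAb-DXd/IMQ tumor 2, Krt5 was -2.06, Krt10 -0.16, Krt15 -0.59, Krt23 -0.011, and Acta1 0.33. Itgb4 and Csn3 passed the thresholds with DESeq2 alone (DESeq2 adjusted p = 0.0385 and 0.0138), where adjusted p over their alternatives reached 0.333 and 0.298. With 1 tumor left out, the range was -0.17 to 0.13 for Krt8, -0.0097 to 0.26 for Krt18, -3.71 to 3.62 for Krt5, -0.19 to 0.95 for Krt10, -0.77 to 0.93 for Krt15, -2.01 to 3.72 for Krt16, 0.050 to 0.45 for Krt7, 0.014 to 0.51 for Krt19, 0.72 to 1.35 for Krt14, 1.66 to 3.25 for Krt17, 0.25 to 0.63 for Krt80, and 0.27 to 1.14 for Krt23. It was -5.21 to 1.19 for Krt6a, -4.68 to 6.49 for Krt6b, -0.53 to 0.43 for Krt88, -0.54 to 0.0068 for Lypd3, -0.13 to 0.28 for Far2, -0.78 to 0.037 for Acta1, -0.25 to 0.15 for Fabp4, and -0.38 to 0.14 for Col1a1. The log2 ratio of class sums then ran from -0.066 to 0.22 for simple, 0.64 to 1.44 for basal, 0.43 to 3.63 for stress, and -0.47 to 1.11 for epidermal suprabasal keratins. Under the other scalings and without length division, the class ratios moved by less than the spread between tumors. Krt1, Krt77, and Krt79 did not pass the filter on low counts of the main test, and with 4 tumors per group the spread of the epidermal keratins leaves wide intervals.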

Other observations

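Krt13, a mucosal keratin named after its values were seen, had 1.34, 0.384, 0.322, and 0.951 CPM in saline tumors 1 to 4 and 0.186, 0.471, 0, and 0.478 CPM in mAb-DXd/IMQ tumors 1 to 4. Saline tumors 1 and 4 were highest and the groups overlapped (log2 fold change -1.41, standard error 0.819, edgeR adjusted p = 0.383). Krt20, Krt222, Krt87, and Krt88, also named after their values were seen, were tested at under 1 CPM on average and had log2 fold changes of 0.53, -0.91, 0.28, and 0.17, with edgeR adjusted p of 0.724, 0.496, 0.821, and 0.923. Krt17 exceeded 99.8% of tested genes in within-group SD of log2 CPM, Krt14 97.2%, and Krt8 43.8%, without matching for abundance.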
